A study of Rattus norvegicus with 6 samples.

Results

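The genes described here are those of the constitutive proteasome, the protease complex that every cell uses to break down proteins marked with ubiquitin. They were taken from the probes of a rat expression array by gene symbol: every symbol that begins with Psma, Psmb, Psmc, Psmd, Psme or Psmg followed by a number, except the immunoproteasome genes Psmb8, Psmb9, Psmb10, Psme1 and Psme2. This gave 40 genes, measured by 71 probes, of 15645 genes with a symbol on the array. Of the 40 genes, 30 encode structural subunits of the complex. The other 10 are the tissue-restricted alpha subunit Psma8, the activators Psme3 and Psme4, 5 assembly chaperones, and Psmc3ip and Psme3ip1, which carry a proteasome name because their proteins bind a subunit or an activator. Psmd11, Psmg1 and Psmg3 were not analysed here.

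RNA came from the renal cortex of 6 male Sprague-Dawley (Crl:CD(SD)) rats, an outbred stock, which were 5 weeks old when bought. The control group of 3 rats was given corn oil alone, and the other 3 were given 1,2-dibromoethane (75 mg/kg/day), a brominated compound once used to fumigate soil, with dosing lasting 4 weeks in both groups. Each rat gave 1 single-colour Agilent array, so that the spread within a group joins that between animals with that between arrays and slides. Having 3 arrays per group limits the precision. Per array, 59.2% to 67.7% of probes were well above background and 0 were saturated.

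The proteasome is built from a barrel, the 20S core, and a cap, the 19S regulatory particle. The core stacks rings of alpha subunits, which gate the entrance, around rings of beta subunits, of which Psmb5, Psmb6 and Psmb7 carry the proteolytic sites. In the cap, the Psmc ATPases unfold the substrate and thread it into the core, while the Psmd subunits bind the ubiquitin chain and remove it. Proximal tubule cells, the main cells of the renal cortex, take up filtered protein for lysosomal breakdown, and use the proteasome for their own cytosolic and nuclear proteins.

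No proteasome gene differed between dibromoethane and control rats at an adjusted p of 0.05 over all features tested. Differences are given as the log2 fold change, dibromoethane minus control, of the gene's brightest probe, from limma with Benjamini-Hochberg adjustment. Of the 40 genes, 39 were well above background on all 6 arrays and were tested, and 0 of the 39 passed (smallest limma adjusted p = 0.355), against 9 of 28961 features (0.0311%). At an unadjusted p under 0.05, 6 of the 39 were lower and 0 higher, where 6.64% of all features were lower. The differences were small and leaned one way. Of the 39 genes, 32 had a log2 fold change below 0, as did 53.5% of all features, and their median was -0.097, beside -0.015 over all features.

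The structural subunits all lay on the same side, in a summary chosen after the values were seen. All 30 structural subunits had a log2 fold change below 0, from -0.29 to -0.0061, with a median of -0.10, which is a level 0.820 to 0.996 times that of controls. The 9 other genes tested had a median of 0.049, and 7 of these were above 0. In 15 of the 30 structural subunits every treated array lay below every control array, as it did in 12.1% of all features. In 0 of the 30 did every treated array lie above every control array, which 7.35% of all features showed. The 30 genes were read on the same arrays and share any shift of an array. These counts are therefore not 30 separate results, and the shares of all features are no test of them. Without control replicate 1, 27 of the 30 lay below 0, and the number was also 27 without dibromoethane replicate 1. Features in the same range of level also lay low more often than not. Among the 8068 features whose mean level lay within the range of the structural subunits, 60.1% were below 0, and the median was -0.035. In 16.7% of them every treated array lay below every control array. These features, called of like level below, were matched on the outer range only and not on the distribution of levels within it. Under quantile normalization, which gives all arrays the same distribution of levels, the median was -0.060 for the structural subunits, with 28 of 30 below 0, and -0.044 for all 39 genes. Differences this small are near the error of a single gene, whose SE in the structural subunits ran from 0.064 to 0.21.

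**Figure D1:**
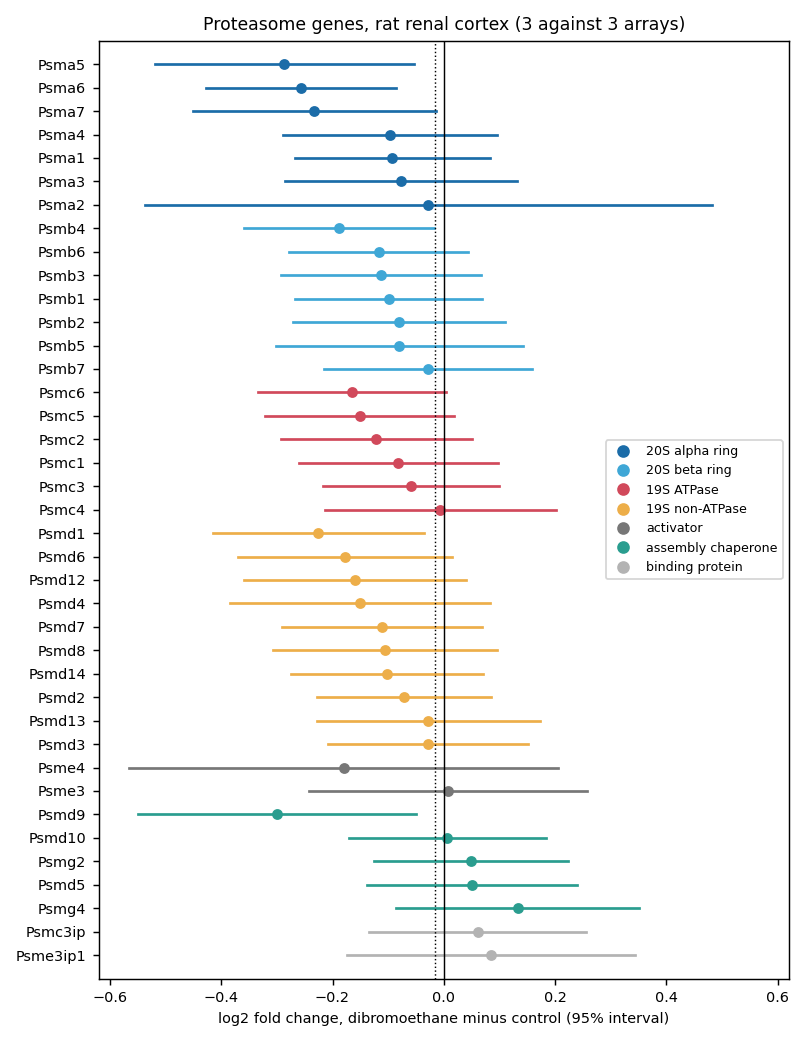
Log2 fold change (dibromoethane minus control, x axis) of the 39 proteasome genes tested, coloured by role, with 95% intervals from limma that are not adjusted for the number of genes (3 arrays per group). The dotted line is the median of all features, -0.015; all 30 structural subunits lie left of 0, and 7 of the 9 other genes lie right of it.

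Promoters are shown for 4 genes picked by p-value, after the lean of the structural subunits was seen. Psma6 and Psma5 are structural subunits, while Psmd9 and Psmg4 are assembly chaperones. The 4 are the 3 genes with the smallest p below 0, and the 1 with the smallest p above 0, among genes with an entry in the RefSeq promoter table (build GRCr8). Each runs 5′ to 3′ over 300 bases, from 250 before to 50 after the start of transcription, with matches to 5 motifs in capitals.
Psma6 promoter, chr6:78514097-78514396, plus strand: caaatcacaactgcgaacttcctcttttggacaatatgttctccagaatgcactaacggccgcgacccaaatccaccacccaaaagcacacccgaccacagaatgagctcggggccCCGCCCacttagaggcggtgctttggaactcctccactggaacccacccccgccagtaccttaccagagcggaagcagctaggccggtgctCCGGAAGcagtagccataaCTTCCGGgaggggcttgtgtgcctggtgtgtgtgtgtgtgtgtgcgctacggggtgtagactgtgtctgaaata
Psma5 promoter, chr2:198584255-198584554, plus strand: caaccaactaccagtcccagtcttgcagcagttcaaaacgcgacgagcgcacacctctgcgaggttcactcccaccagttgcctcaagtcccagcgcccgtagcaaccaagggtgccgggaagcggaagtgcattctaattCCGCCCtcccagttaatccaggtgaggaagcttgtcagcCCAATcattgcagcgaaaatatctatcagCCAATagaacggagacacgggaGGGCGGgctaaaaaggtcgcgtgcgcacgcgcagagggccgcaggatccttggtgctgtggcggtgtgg
Psmd9 promoter, chr12:39018215-39018514, minus strand: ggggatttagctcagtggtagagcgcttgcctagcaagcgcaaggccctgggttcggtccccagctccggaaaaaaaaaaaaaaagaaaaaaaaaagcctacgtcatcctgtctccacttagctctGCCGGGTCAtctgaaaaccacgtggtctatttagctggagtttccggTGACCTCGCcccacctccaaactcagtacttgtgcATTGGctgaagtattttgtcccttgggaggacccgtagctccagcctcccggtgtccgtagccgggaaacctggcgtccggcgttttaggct
Psmg4 promoter, chr17:30923324-30923623, minus strand: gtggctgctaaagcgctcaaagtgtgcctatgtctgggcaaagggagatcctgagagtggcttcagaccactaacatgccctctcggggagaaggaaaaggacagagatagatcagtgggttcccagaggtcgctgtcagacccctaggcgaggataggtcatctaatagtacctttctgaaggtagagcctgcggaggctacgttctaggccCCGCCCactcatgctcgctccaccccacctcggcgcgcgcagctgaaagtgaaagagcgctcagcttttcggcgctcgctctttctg
The motifs were the core of the antioxidant response element (TGACNNNGC), which the proteasome gene regulator Nfe2l1 recognises, the CCAAT box (CCAAT), the GC box (GGGCGG), an ETS core (CCGGAAG) and a YY1 core (AAGATGGC), searched on both strands. In these 4 promoters none of the matches overlap each other. The Psma6 promoter holds 1 GC box and 2 ETS cores, that of Psma5 2 CCAAT boxes and 2 GC boxes, that of Psmd9 2 antioxidant response element cores and 1 CCAAT box, and that of Psmg4 1 GC box.

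Of the 30 structural subunits, 26 had a promoter entry. A GC box stood in 19 of these 26 (73.1%) and in 34.7% of all 27457 promoters of the same length, a CCAAT box in 14 (53.8%, against 37.7%), and an ETS core in 9 (34.6%, against 9.2%). The YY1 core stood in 6 of 26 (23.1%, against 3.4%): Psma2, Psmb6, Psmb7, Psmc4, Psmc5 and Psmd7. The antioxidant response element core also stood in 6 (23.1%, against 12.2%): Psma3, Psmb2, Psmb5, Psmb6, Psmd1 and Psmd3. Those genes had log2 fold changes from -0.23 for Psmd1 to -0.028 for Psmd3. A looser form of it, TGANNNNGC, which holds every match of the core, stood in 16 (61.5%, against 40.4%). The palindrome of nuclear respiratory factor 1 stood in 1 (3.8%, against 0.9%) and the element known from yeast proteasome genes (GGTGGCAAA) in 0. Among the 9 other genes tested, a GC box stood in 7, a CCAAT box in 5 and an ETS core in 4. The antioxidant response element core stood in 2 of these 9, its looser form in 6 and the YY1 core in 1. The yeast element stood in 1 of them, Psme3. All these matches describe letters in a window and were not tested as binding sites.

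In the alpha ring, whose tails close the pore of the core particle, the 7 genes had a median log2 fold change of -0.097, beside -0.099 for the 7 of the beta ring. Psma5, Psma6 and Psma7 had the 3 lowest values of the structural subunits, while the other 4 alpha genes lay between -0.097 and -0.028. Levels are log2 signals relative to the array's 75th percentile. Psma6 (alpha 1) was measured at 5.55, 5.65 and 5.54 in control replicates 1 to 3 and at 5.29, 5.36 and 5.32 in dibromoethane replicates 1 to 3. Every treated array lay below every control array. The log2 fold change was -0.26 (SE 0.070), the smallest p of all proteasome genes, but not past the threshold (limma adjusted p = 0.355). Its second probe gave -0.15.

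Psma5 (alpha 5) stood at 3.68, 3.83 and 3.59 in controls and at 3.35, 3.53 and 3.36 in treated rats. These groups did not overlap either. The difference was -0.29 (SE 0.095; limma adjusted p = 0.384), or 0.820 times the control level, from the 1 probe of the gene. Psma7 (alpha 4), also without overlap, had a log2 fold change of -0.23 (SE 0.089). The remaining alpha subunits Psma1, Psma3 and Psma4 gave -0.093, -0.076 and -0.097, with overlapping groups.

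Psma2 (alpha 2) had the largest spread within groups of all structural subunits. It was measured at 3.19, 2.74 and 3.29 in controls and at 3.21, 2.69 and 3.23 in treated rats. Replicate 2 of each group was low, both of them on slide 1, and the other 4 arrays lay close together. Control replicate 1 was on slide 1 as well and was not low. The difference of Psma2 was therefore poorly measured, at -0.028 (SE 0.21), and it was 0.032, 0.079 and 0.15 without control replicate 1, control replicate 3 and dibromoethane replicate 2. Psma2 has 1 probe here, so the pattern has no check from a second probe.

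The beta ring carries the proteolytic sites, and its 3 catalytic genes differed little. Psmb5, the chymotrypsin-like subunit, had levels of 4.76, 4.71 and 4.57 in controls and 4.53, 4.72 and 4.55 in treated rats. The groups overlapped, and the log2 fold change was -0.080 (SE 0.091; 95% interval -0.30 to 0.14). Psmb6, the caspase-like subunit, stood at 2.89, 2.87 and 2.88 in controls and at 2.71, 2.81 and 2.77 in treated rats. All treated arrays lay below the controls, with a difference of -0.12 (SE 0.066; limma adjusted p = 0.544). Psmb7, the trypsin-like subunit, was measured at 3.21, 3.11 and 3.07 in controls and at 3.03, 3.14 and 3.14 in treated rats. These groups overlapped, and the difference was -0.029 (SE 0.077; 95% interval -0.22 to 0.16).

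Among the beta subunits without a proteolytic site, Psmb4 (beta 7) had the lowest value. Its levels were 5.26, 5.21 and 5.14 in controls and 5.02, 5.04 and 4.97 in treated rats, without overlap. The log2 fold change was -0.19 (SE 0.070; limma adjusted p = 0.417), and its second probe gave -0.088. Psmb1, Psmb2 and Psmb3, the structural partners in the ring, gave -0.099, -0.080 and -0.11, of which Psmb1 did not overlap.

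The 6 ATPases of the cap form the ring that drives unfolding. Their log2 fold changes ran from -0.16 to -0.0061, with a median of -0.10, and in 4 of the 6 every treated array lay below every control array (12.1% of all features and 16.7% of those of like level). Psmc6 (Rpt4) was measured at 3.36, 3.44 and 3.33 in controls and at 3.17, 3.22 and 3.25 in treated rats. Each treated value lay below each control value, and the difference was -0.16 (SE 0.069; limma adjusted p = 0.454). Of its other probes, 1 gave -0.17 and 1 gave -0.012. Psmc5 (Rpt6) stood at 5.93, 5.91 and 5.89 in controls and at 5.69, 5.77 and 5.82 in treated rats, a difference of -0.15 (SE 0.070; limma adjusted p = 0.478). Psmc2 and Psmc3 did not overlap at -0.12 and -0.059, while Psmc1 gave -0.082 and Psmc4 -0.0061 (SE 0.085), both with overlap.

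The 10 non-ATPase subunits of the cap had a median of -0.11, where that of all features was -0.015 and that of features of like level -0.035. In 5 of them every treated array lay below every control array, against 12.1% of all features and 16.7% of those of like level. Psmd1 (Rpn2), a large scaffold that holds ubiquitin receptors, was measured at 5.55, 5.65 and 5.47 in controls and at 5.35, 5.38 and 5.27 in treated rats. All treated arrays lay below the controls. The log2 fold change was -0.23 (SE 0.078; limma adjusted p = 0.395), with -0.20 from its second probe. Psmd6 (Rpn7), a subunit of the lid, gave -0.18 (SE 0.079) from levels of 4.87, 4.92 and 4.74 in controls and 4.65, 4.72 and 4.62 in treated rats. The other probe of Psmd6, a dimmer one, went the opposite way at 0.16, so that the direction for this gene rests on the brighter probe.

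Psmd2 (Rpn1), the other large scaffold, gave -0.072, and the ubiquitin receptor Psmd4 (Rpn10) -0.15 (SE 0.096). Psmd14 (Rpn11), the deubiquitinase that cuts chains from the substrate, had a difference of -0.10 (SE 0.071), and its levels did not overlap: 1.15, 1.17 and 1.13 in controls against 0.98, 1.12 and 1.04 in treated rats. Psmd7, the partner of Psmd14 in the lid, gave -0.11 from its brightest probe and -0.28 and -0.25 from its other probes. The lid subunits Psmd3, Psmd8, Psmd12 and Psmd13 lay at -0.028, -0.11, -0.16 and -0.028, all with overlap.

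**Figure D2:**
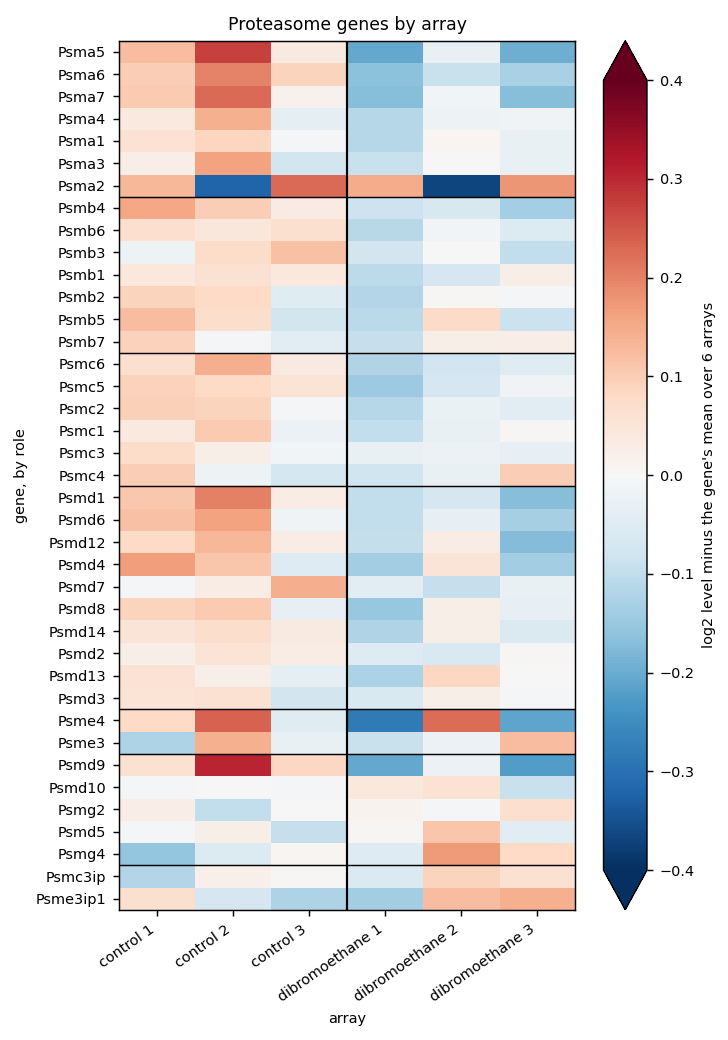
Log2 level of each of the 39 proteasome genes on each of the 6 arrays, minus the gene's own mean over the arrays (colour scale, log2 units; rows by role, separated by lines). In control replicates 1 and 2, 2 and 3 of the 30 structural subunits lie below their own mean, and in dibromoethane replicate 1 29 do; Psma2 is low in replicate 2 of both groups.

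Activators replace the cap at the mouth of the core, and the 2 measured here did not differ beyond their error. Psme4 (PA200), a nuclear activator, was measured at 2.08, 2.24 and 1.96 in controls and at 1.72, 2.23 and 1.79 in treated rats. The groups overlapped, as dibromoethane replicate 2 lay near the highest control. The difference was -0.18 (SE 0.16; 95% interval -0.57 to 0.21), and it was 0.066 within slide 1. Psme3 (PA28 gamma) stood at 2.68, 2.94 and 2.77 in controls and at 2.71, 2.78 and 2.92 in treated rats, a difference of 0.0073 (SE 0.10) with overlapping groups. Its second probe gave 0.18.

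The assembly chaperones escort subunits into the complex and leave it when it is complete. Psmd9, a chaperone of the ATPase ring, had the lowest value of all 39 genes. It was measured at 3.90, 4.15 and 3.92 in controls and at 3.64, 3.82 and 3.62 in treated rats. The groups did not overlap, and the log2 fold change was -0.30 (SE 0.10; limma adjusted p = 0.393), with -0.29 and -0.13 from its other probes. The other 2 ATPase chaperones lay above 0, Psmd5 at 0.050 (SE 0.077) and Psmd10 (gankyrin) at 0.0065 (SE 0.072).

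Of the chaperones of the core particle, Psmg2 and Psmg4 were measured under this naming scheme, and both gave values above 0. Psmg4 stood at 2.59, 2.69 and 2.75 in controls and at 2.69, 2.91 and 2.82 in treated rats, with overlap. Its difference of 0.13 (SE 0.089; limma adjusted p = 0.601) was the highest of all 39 genes, but its other probes gave -0.089 and -0.091, and the mean of its 3 probes gave -0.016. Psmg2 was measured at -0.01, -0.13 and -0.04 in controls and at -0.02, -0.04 and 0.03 in treated rats, a difference of 0.049 (SE 0.071; limma adjusted p = 0.822), again with overlap. Psmc3ip, a factor of meiotic recombination, and Psme3ip1, a nuclear partner of Psme3, gave 0.061 (SE 0.080) and 0.085 (SE 0.11). Psma8, an alpha subunit of the testis, was not tested: 1 of its 4 probes passed the background test on 2 arrays, and the other 3 passed it on none.

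Several probes per gene gave a check of direction within the same arrays. For 21 genes, 28 further probes were well above background on all 6 arrays, and 25 of these had the sign of the brightest probe. The 3 exceptions were the probe of Psmd6 and both of Psmg4. Of the 21 further probes for structural subunits, 20 were below 0, with a median of -0.056. These probes read the same RNA samples, so they check the probe and not the animals.

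**Figure D3:**
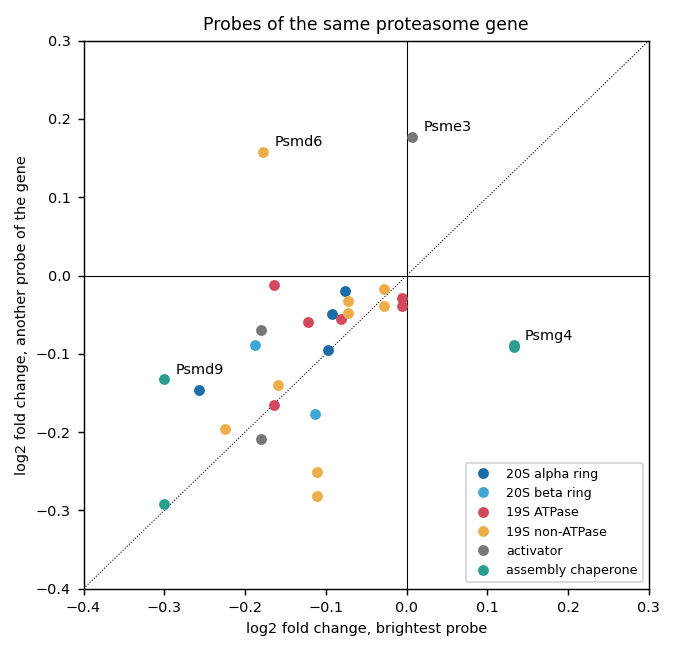
Log2 fold change of each further probe (y axis) against that of the brightest probe of the same gene (x axis), for the 28 further probes of 21 genes, coloured by role; the dotted line marks equal values. Points gather in the lower left, where both probes are below 0, with 1 probe of Psmd6 and both of Psmg4 (their points coincide) where the signs are opposite.

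The lean of the structural subunits was not carried by all arrays alike. The median of the 30 subunits, each taken relative to its own mean over the 6 arrays, was 0.083, 0.084 and 0.0077 in control replicates 1 to 3 and -0.11, -0.022 and -0.032 in dibromoethane replicates 1 to 3. All treated medians lay below all control medians, but control replicate 3 and dibromoethane replicate 2 were close. For features of like level the medians were 0.041, 0.019 and -0.0075 in controls and -0.032, -0.0046 and -0.011 in treated rats, which overlapped. In dibromoethane replicate 1, 29 of the 30 subunits lay below their own mean, against 18 in replicate 2 and 24 in replicate 3, and 2, 3 and 15 in control replicates 1 to 3.

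Hybridisation was spread over 3 slides. Dibromoethane replicate 2 shared slide 1 with the first pair of controls (replicates 1 and 2), dibromoethane replicate 1 shared slide 2 with control replicate 3, and dibromoethane replicate 3 was alone on slide 3. Slide 2 was scanned on another day than the others. Both arrays of slide 2 lay lower than the arrays of their group on slide 1. Within slide 1 the structural median was -0.096 and within slide 2 it was -0.11, each with 29 of 30 subunits below 0. With slide as a fixed block the median was -0.096. In that fit dibromoethane replicate 3, alone on its slide, does not contribute to the log2 fold change. The fit thus combines the contrasts within slides 1 and 2 and is no further check on them. Each scan day held as many control as treated arrays, so a block for scan day cannot move the median of -0.10. Without dibromoethane replicate 1 the median of all 39 genes was -0.065 and that of the structural subunits -0.082. The 6 genes at an unadjusted p under 0.05 in limma became 2 without control replicate 1, and 1 without control replicate 2, dibromoethane replicate 1 or dibromoethane replicate 3. The number was 7 without control replicate 3 and 6 without dibromoethane replicate 2. Their number was 2 with slide as a fixed block, and 3 after quantile normalization or without a filter on dim probes. It was 8 with slide as a random block and 9 with a trended and robust variance. The number of all features at an unadjusted p under 0.05 moved too. It fell from the main fit without control replicate 1 or 2, dibromoethane replicate 1 or 3 or the filter, and after quantile normalization. It rose without control replicate 3 or dibromoethane replicate 2, with slide as either block and with a trended and robust variance. With slide as a fixed block the proteasome count thus fell while that of all features rose.

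**Figure D4:**
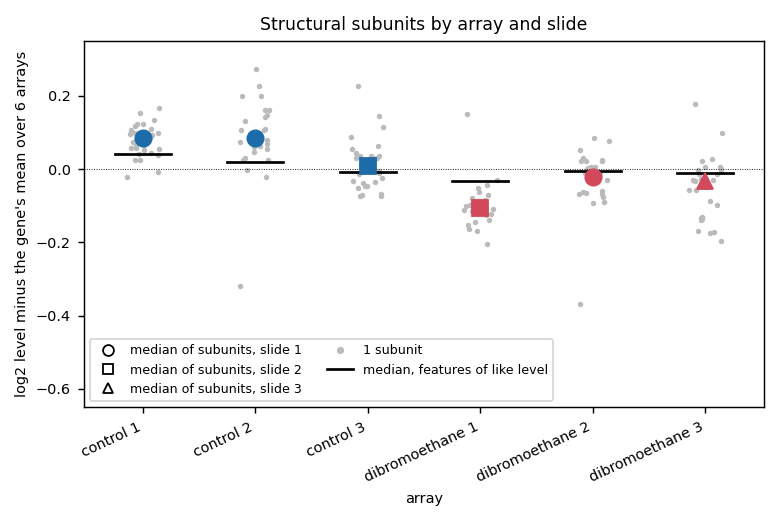
Each grey point is 1 of the 30 structural subunits, as log2 level minus its own mean over the 6 arrays (y axis), by array (x axis); large symbols are the medians, blue for control and red for dibromoethane, with the shape giving the slide, and black bars are medians of the 8068 features of like level. Control medians run from 0.0077 to 0.084 and treated medians from -0.11 to -0.022, with slide 2 lower than slide 1 in each group.

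Partners of the proteasome outside this naming scheme were read from a list of 30 genes, 24 of them measured. Of the 24, 0 passed in limma (smallest adjusted p = 0.433; 1 at an unadjusted p under 0.05), 16 were below 0 and 8 above, and the median was -0.068. The share below 0 was 66.7%, beside 60.1% for features of the level of the structural subunits and 53.5% for all features. The share lower at an unadjusted p under 0.05 was 4.17%, beside 6.64% of all features. The lowest p belonged to Ube3a, a ubiquitin ligase that docks on the proteasome. It stood at 2.15, 2.25 and 2.22 in controls and at 2.02, 1.88 and 2.09 in treated rats, without overlap, a difference of -0.21 (SE 0.082). Rps27a, which encodes ubiquitin fused to a ribosomal protein, gave -0.15 (SE 0.070), again without overlap. On the other side were Adrm1, the ubiquitin receptor Rpn13, at 0.18 (SE 0.11), Uba1, the main ubiquitin-activating enzyme, at 0.12 (SE 0.087), and the shuttle Ubqln4 at 0.079 (SE 0.076). Values for Pomp, the maturation factor of the core, and Nfe2l1, the transcription factor that restores proteasome genes when the complex is inhibited, were -0.13 (SE 0.072) and -0.14 (SE 0.12). The groups did not overlap for Pomp and overlapped for Nfe2l1.

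The 5 immunoproteasome genes, whose products replace constitutive subunits after interferon, had a median of -0.0065. Psmb8, Psmb9 and Psmb10, the inducible counterparts of Psmb5, Psmb6 and Psmb7, gave -0.19 (SE 0.098), -0.0065 (SE 0.11) and 0.059 (SE 0.11). The inducible activator subunits Psme1 and Psme2 gave 0.038 and -0.12 (SE 0.071 each), and 0 of the 5 passed in limma, where 0 had an unadjusted p under 0.05.

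Marker genes of the cells in this tissue were read from the same arrays. All 8 proximal tubule markers, among them Slc34a1, Lrp2 and Slc22a6, were well above background on every array, which checks the labelled tissue. In units of the array's 75th percentile, the sum of their signals was 1770 to 1809 in controls and 1620 to 1671 in treated rats. These sums did not overlap. Of the 8 markers 7 were below 0, and Cubn gave 0.12. Over all features 53.5% were below 0. Within the level range of the structural subunits, which most of these markers exceeded, 60.1% were. Of the blood markers 5 were measured, with sums of 547 to 614 in controls and 378 to 491 in treated rats. Of these 5, 3 were below 0, the globins Hbb and Hba-a1 and the heme enzyme Alas2, and Slc4a1 and Ahsp gave 0.021 and 0.094. Of the 11 liver transcripts 10 were above 0, as were 13463 of all 28961 features. The liver sums were 14.5 to 27.0 in controls against 23.9 to 53.0 in treated rats, highest in dibromoethane replicate 1. The macrophage genes C1qa and C1qb lay lower without overlap (-0.54 and -0.48), while leukocyte sums overlapped (85.0 to 95.5 against 87.0 to 93.5, 8 of 9 markers measured), as did those of the 2 thick ascending limb markers (315 to 341 against 135 to 351), the 2 distal and collecting duct markers (128 to 151 against 111 to 156) and the 2 podocyte markers (9.84 to 11.4 against 8.39 to 12.7). Perirenal fat markers, 2 of 4 measured, gave 1.27 to 1.47 against 0.969 to 1.29. No marker of these lists passed in limma (smallest adjusted p = 0.248). The part of these shifts in the values of the proteasome genes was not tested, and in tissue RNA fewer cells of a type and less RNA per cell cannot be told apart.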

How the data were processed

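RNA of 6 renal cortices, labelled with Cy3, was read on single-colour Agilent arrays, as the labels' protocols state. The deposited scanner files hold the intensity of each spot, background-subtracted by Agilent Feature Extraction 10.7.1.1, on a grid that names build rn4, per the file headers; the submitters' processing notes name version 10.7. The deposited series table also holds intensity values. It is the processed signal divided by the 75th percentile of its array (correlation of log2 values 1.00 on each array; the constants differ by under 0.005 in log2), linear and not centred by gene. Its column medians were 0.101, 0.102 and 0.112 in the controls and 0.110, 0.105 and 0.107 in the treated rats.

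Of 62976 spots, 1439 control spots and 84 ERCC spike-in probes were left out. Unversioned accessions were looked up in a RefSeq table of assembly GRCr8, used for names, which named 28206 of 61453 probes. The values used are log2 of the processed signal, less that of its array's 75th percentile. Spots flagged as outliers (1 to 11 per array, on no proteasome gene) were set to missing. Each gene is its brightest probe over the 6 arrays. A feature entered the test (28961 did) where 1 or both groups had it well above background throughout. Both groups were fitted with limma 3.58.1 (lmFit, eBayes; R 4.3.3), two-sided, without covariates. Levels of different probes cannot be set against each other. Alternatives covered normalization, background correction, filters, probe summary, slide, scan day, replicate number, variance model and single arrays. Normexp used the median spot signal, as no mean signal was analysed here. The fit was tried on simulated data with independent values and no slide or array effect. That simulation therefore cannot speak to shifts shared by the genes of an array.

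Genes, gene lists and role groups were chosen with earlier results of these data known, and the motifs and the summary of the structural subunits after seeing the values. Levels on all arrays are given for Psmb5, Psmb6 and Psmb7. They are also given for the smallest p-values of each role except the binding proteins (up to 2 genes below 0 and 2 above). Levels of Psma2 and Psmd14 were added after their values were seen. Pomp, Nfe2l1, C1qa and C1qb were also added after their values were seen, without levels on all arrays. Of the partners, the 3 smallest p-values in each direction are named, except that 1 gene is not reported here.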

Additional observations from a re-analysis of the deposited data

How the results depend on the processing

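In limma, 0 of the 39 proteasome genes passed under every alternative fitted (smallest adjusted p = 0.185, with a trended and robust variance). Over all features, 9 passed; the number was 5 with normexp, 2 without a filter on dim probes, 0 with slide as a fixed block, 2 with scan day as a block, 17 with a trended and robust variance, and 1 to 8 with 1 array left out. Deviations of same-numbered arrays had correlations of -0.19, 0.26 and 0.16, beside -0.32 to 0.20 for the other pairs. These values do not settle whether the replicate numbers pair the animals. With a replicate block 0 features passed. Each such block holds as many control as treated arrays, so it cannot move a log2 fold change. The median of the 39 genes was -0.097 in the main fit. That median was -0.044 after quantile normalization and -0.065 to -0.11 with 1 array left out. The number of genes above 0 was 4 within slide 2 and 6 to 9 with 1 array left out. For the structural subunits, summaries chosen after seeing the data, 27 to 30 lay below 0 with 1 array left out (27 without control replicate 1 or dibromoethane replicate 1), and the median was -0.14 to -0.082.

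Signs turned for genes of which none passed, among them Adrm1, Psme4 and Psmg4 at 0.18, -0.18 and 0.13 before, and the cause was not tested. After quantile normalization Psmb9, Psmc4 and Psmd2 stood at 0.0034, 0.0030 and 0.0042. With normexp Psmb9, Psmc4, Psmd13 and Psmd10 stood at 0.024, 0.011, 0.012 and -0.022. With slide as a fixed block Psmb9 was 0.015 and Psme3 -0.044, and with a random block Psme3 was -0.0069. Within slide 1 Adrm1, Psmb9, Psmd13, Psme3 and Psme4 stood at -0.022, 0.18, 0.044, -0.034 and 0.066. Within slide 2 Psmb10, Psmc3ip, Psmd3, Psme1, Psme3, Psme3ip1 and Psmg4 stood at -0.12, -0.064, 0.011, -0.034, -0.058, -0.013 and -0.060. The mean of its probes gave -0.016 for Psmg4. With 1 array left out, Psma2 ran from -0.19 to 0.15, Psmb7 from -0.059 to 0.010, Psmb9 from -0.10 to 0.061, Psmb10 from -0.040 to 0.14, Psmc4 from -0.057 to 0.042, Psmd10 from -0.021 to 0.053, Psmd13 from -0.077 to 0.027 and Psme3 from -0.053 to 0.080.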
